A study of Mus musculus with 5 samples.

Results

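The genes described here are 5 genes of the Serpina3 cluster (Serpina3k, Serpina3m, Serpina3n, Serpina3c and Serpina3b) and 3 genes of other acute-phase proteins (Hp, Lcn2 and Saa3). They were chosen by gene name, and all 8 were found among the 53700 genes of the first table and the 55416 genes of the second. Serpina3k was picked because its level was high in the library of ATRβKO mice given T3 and low elsewhere, so its pattern is the basis of the choice and is given as a description. The other 7 were chosen with earlier results of these libraries known.

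Expression was measured by RNA sequencing of inguinal white adipose tissue, a subcutaneous fat depot of the mouse, with 1 library per group. The first table held ATRβKO mice given T3, the active form of thyroid hormone, floxed mice given T3 and floxed mice given PBS as vehicle, all on normal food. Injections were daily for 7 days and the tissue was taken 24 hours after the last, with the fat of 3 mice pooled into each of these libraries. The second table held floxed mice fed a high-fat diet (HFD) for 2 to 3 months, for which the labels do not state pooling. ATRβKO stands for a loss of thyroid hormone receptor β, encoded by Thrb, from adipocytes, per the series title, and floxed mice carry the control genotype. The driver of the deletion and the age and sex of the mice are not given in the sources used here. With 1 library per group the spread between mice is unknown, so no test was run, and a difference between libraries may be a difference between the mice that were pooled. In tissue RNA, fewer cells of a type and less RNA per cell cannot be told apart.

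Serpins are inhibitors that trap a protease with an exposed stretch, the reactive centre loop, which the protease cuts as bait. Humans have a single SERPINA3 gene, which encodes α1-antichymotrypsin, while mice carry an expanded set of copies in a cluster on chromosome 12. Acute-phase proteins are secreted in quantity, mostly by the liver, when interleukin 6, interleukin 1 and glucocorticoids act on C/EBP, STAT3 and NF-κB factors, and adipose tissue makes several of them as well.

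Because these copies resemble each other, the sequences were compared first. The coding sequences of the 5 Serpina3 genes (GENCODE M21) were identical in 823 of 1269 aligned columns, or 64.9%. A column with a gap in any gene was counted as not identical. Serpina3k was closest to Serpina3m, at 91.53% identity, followed by Serpina3c at 85.42%, Serpina3n at 82.81% and Serpina3b at 73.54%. Divergence was uneven along the gene. A window of 60 aligned columns held 41 identical ones at the median. The most divergent window, centred 91.1% to 91.8% of the way along each coding sequence, held 8. Gaps account for part of that drop, as the window held 54 bases of Serpina3k and 51 of Serpina3c. The reactive centre loop of serpins lies close to the carboxy terminus, in this part of the protein. These stretches are shown because they are what sets the copies apart, with capitals for bases that are not the same in all 5 genes.
Serpina3k: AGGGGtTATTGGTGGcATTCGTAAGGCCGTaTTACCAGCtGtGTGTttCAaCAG
Serpina3m: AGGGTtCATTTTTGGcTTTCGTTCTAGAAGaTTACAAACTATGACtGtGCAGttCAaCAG
Serpina3n: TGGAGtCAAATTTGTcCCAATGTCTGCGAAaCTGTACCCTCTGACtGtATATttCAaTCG
Serpina3c: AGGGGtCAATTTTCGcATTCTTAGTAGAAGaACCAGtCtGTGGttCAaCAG
Serpina3b: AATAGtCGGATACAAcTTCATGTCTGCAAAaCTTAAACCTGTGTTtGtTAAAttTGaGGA
In this stretch Serpina3k differed from Serpina3m at 20 of 54 bases compared, from Serpina3c at 19 of 51 and from Serpina3n at 29 of 54.

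**Figure D1:**
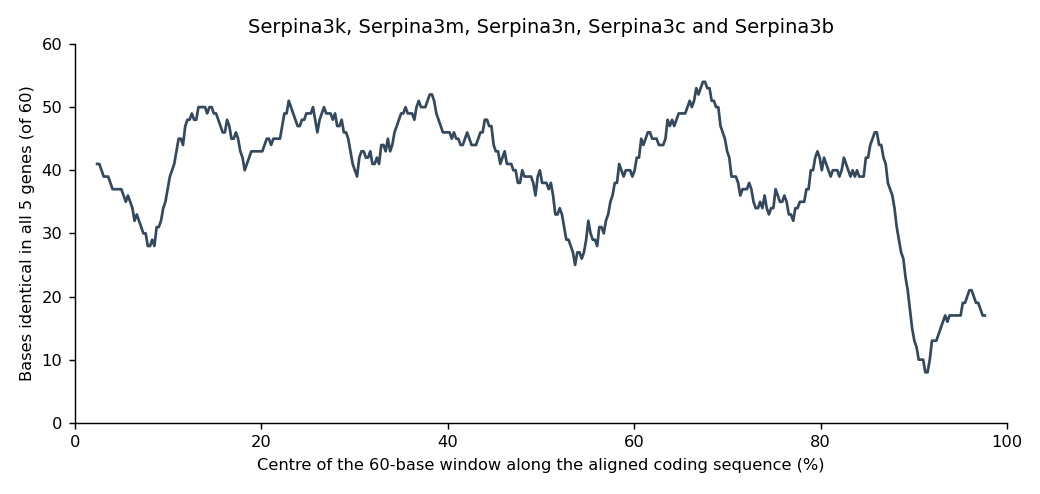
Number of bases identical in all 5 Serpina3 coding sequences in sliding windows of 60 aligned columns, by position along the alignment in percent. The count has a median of 41 and drops to its lowest, 8, near the 3′ end. Columns with a gap in any gene count as not identical.

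The reads were 150 bases long, per the labels' protocols, so windows of that length were searched letter for letter in the transcripts of every other gene. Of 1908 such windows of Serpina3k, 5 (0.26%) also occurred in Serpina3m, and no window of Serpina3n, Serpina3c, Serpina3b, Hp, Lcn2 or Saa3 occurred in another gene. With windows of 50 bases the shared part was 14.04% for Serpina3k, 19.07% for Serpina3m, 6.90% for Serpina3n, 4.25% for Serpina3c and 2.92% for Serpina3b. For Saa3 it was 4.23%, shared with 519 other genes, and for Hp and Lcn2 it was 0%. How the authors' tools assigned reads with mismatches or several placements was not tested, so levels of the low copies next to an abundant one remain uncertain.

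Promoters were printed for the Serpina3 genes whose sequence was available in the table used (RefSeq, build GRCm38.p6, 250 bases before to 50 bases after the gene's start), to show how alike the abundant and the near-silent copies are. Of the 8 genes, 5 matched an entry, and Serpina3k, Serpina3m and Hp had none. Capitals mark matches, on either strand, to TTGCNNAA (a C/EBP motif), TTCNNNGAA (a STAT motif), GGG, any 5 bases and CC (an NF-κB motif), AGAACA (a glucocorticoid receptor half-site) or AGGTCA (a thyroid hormone receptor half-site).
Serpina3n, chr12:104406458-104406757, plus strand: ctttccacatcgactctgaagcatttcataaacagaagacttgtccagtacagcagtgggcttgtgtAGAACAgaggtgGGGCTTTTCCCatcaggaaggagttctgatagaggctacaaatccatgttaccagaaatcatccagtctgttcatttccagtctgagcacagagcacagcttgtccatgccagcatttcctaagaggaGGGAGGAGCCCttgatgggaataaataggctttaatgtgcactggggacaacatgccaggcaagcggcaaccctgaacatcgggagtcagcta
Serpina3c, chr12:104153823-104154122, minus strand: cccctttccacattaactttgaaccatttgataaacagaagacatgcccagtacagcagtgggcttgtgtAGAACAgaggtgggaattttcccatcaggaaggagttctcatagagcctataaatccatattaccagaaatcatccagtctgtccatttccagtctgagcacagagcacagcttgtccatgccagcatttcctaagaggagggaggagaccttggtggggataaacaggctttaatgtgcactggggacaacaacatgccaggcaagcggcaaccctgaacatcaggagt
Serpina3b, chr12:104127746-104128045, plus strand: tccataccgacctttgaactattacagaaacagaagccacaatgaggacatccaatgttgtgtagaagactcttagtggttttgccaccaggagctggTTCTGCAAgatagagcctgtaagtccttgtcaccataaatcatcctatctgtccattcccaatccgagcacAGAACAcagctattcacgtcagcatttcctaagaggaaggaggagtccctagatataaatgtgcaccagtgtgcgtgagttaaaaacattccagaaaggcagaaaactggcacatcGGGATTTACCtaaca
The windows of Serpina3n and Serpina3c were 93.5% identical over 294 aligned bases, and that of Serpina3b was 71.6% identical to Serpina3n and 70.6% to Serpina3c. All 3 held 1 AGAACA match, which 19.0% of the 32851 promoters in the table also held. In Serpina3n and Serpina3c it began at -183 and -180 from the start, and in Serpina3b at -81. The Serpina3n window also had 4 matches to the NF-κB motif, in 2 overlapping pairs and Serpina3b and Lcn2 had 1 each, against 50.8% of all promoters with at least 1, while Serpina3c had none. TTGCNNAA occurred once each in Serpina3b, Lcn2 and Saa3 and in 10.8% of all promoters. Neither TTCNNNGAA (8.3% of all) nor AGGTCA (16.3%) was found in any of the 5 windows.

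The libraries were checked against their labels before the levels were read. Values are FPKM, fragments scaled to transcript length and library total, a unit inferred from the files. Estimated depth was 12820000 to 13480000 fragments in the first table and 19400000 for Floxed (HFD). Adipocyte markers were abundant throughout, with Fabp4, a fatty acid carrier, at 10682 FPKM in ATRβKO (T3), 11288 in Floxed (T3), 10033 in Floxed (Veh) and 20059 in Floxed (HFD). Thrb, the targeted gene, was at 4.26 FPKM in ATRβKO (T3), 4.43 in Floxed (T3) and 4.44 in Floxed (Veh). A gene-level value does not show a deleted exon or the receptor of other cells, so it does not check the label, and the library is named by its label throughout. Thra, which encodes the other thyroid hormone receptor, was at 41.55 FPKM in ATRβKO (T3), 32.71 in Floxed (T3) and 50.43 in Floxed (Veh). Skeletal muscle markers summed to 2441 FPKM in ATRβKO (T3), 528 in Floxed (T3) and 2455 in Floxed (Veh), and to 11077 in Floxed (HFD). Whether this reflects muscle in the dissected tissue was not tested.

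Serpina3k, which lists contrapsin among its other names in RefSeq, was at 25.95 FPKM in ATRβKO (T3), against 1.24 in Floxed (T3) and 1.72 in Floxed (Veh). It stood at 1.41 FPKM in Floxed (HFD), from the second table. The library labelled ATRβKO (T3) was alone above 2 FPKM. At the estimated depths this level corresponds to about 717 fragments in ATRβKO (T3), 34 in Floxed (T3), 45 in Floxed (Veh) and 56 in Floxed (HFD). The level was 20.9-fold that of Floxed (T3) and 15.1-fold that of Floxed (Veh). On the log2 scale with 1 FPKM added to each value, the scale of every log2 ratio below, the ratios were 3.59 and 3.31. Ordered by this ratio, Serpina3k was the highest of 12872 genes matched to a RefSeq protein in ATRβKO (T3) over Floxed (T3), and the highest of 12946 over Floxed (Veh). Among all 14988 and 15175 genes at 1 FPKM or more it was the 25th and 30th, behind predicted genes, pseudogenes and entries named by clone. Serpina3k was picked for this rise, so its place in the order restates the choice.

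Serpina3m, its closest relative by sequence, was at 4.02 FPKM in ATRβKO (T3), 2.45 in Floxed (T3) and 2.52 in Floxed (Veh), and at 5.12 FPKM in Floxed (HFD). These levels stand for about 90, 55, 54 and 165 fragments, in the order just given. The ATRβKO (T3) level was 1.64-fold that of Floxed (T3), so the closest copy differed far less than Serpina3k. With both genes summed, the log2 ratio was 2.72 over Floxed (T3) and 2.56 over Floxed (Veh).

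Serpina3n, which inhibits granzyme B in mice, was the most abundant Serpina3 gene in every library. It stood at 340 FPKM in ATRβKO (T3), 168 in Floxed (T3) and 222 in Floxed (Veh). The log2 ratio of ATRβKO (T3) was 1.01 over Floxed (T3) and 0.61 over Floxed (Veh), and that of Floxed (T3) over Floxed (Veh) was -0.40. The first lies at the edge of the 2-fold rule used below, and it was 0.82 after the libraries were scaled to a median log2 ratio of 0. Floxed (HFD) held 449 FPKM, which placed Serpina3n 224th among the genes of that library, against 268th in ATRβKO (T3), 495th in Floxed (T3) and 364th in Floxed (Veh).

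Serpina3c, which RefSeq also lists as Klkbp, was the next most abundant copy. Its level was 61.56 FPKM in ATRβKO (T3), 35.01 in Floxed (T3) and 61.45 in Floxed (Veh), so the library of floxed mice given T3 was the low one and the others were nearly equal. The log2 ratio was 0.80 for ATRβKO (T3) over Floxed (T3) and -0.79 for Floxed (T3) over Floxed (Veh). Floxed (HFD) held 143.59 FPKM. Serpina3b was close to absent, at 0.33 FPKM in ATRβKO (T3), 0.06 in Floxed (T3), 0.03 in Floxed (Veh) and 0.18 in Floxed (HFD). With about 9, 2, 1 and 7 fragments behind these values in the same order, no fold is given.

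**Figure D2:**
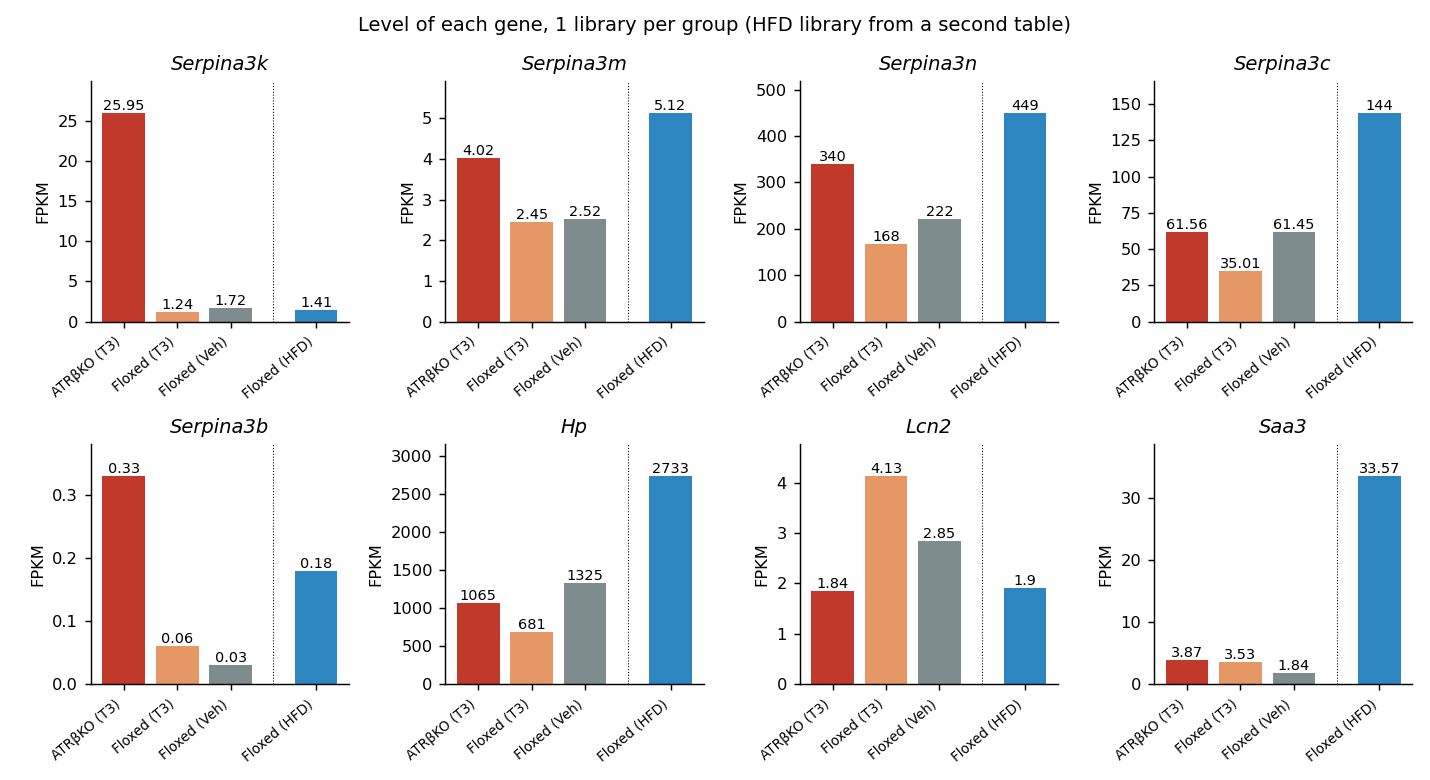
Level in FPKM of each of the 8 genes in the library of ATRβKO mice given T3, floxed mice given T3, floxed mice given vehicle and, right of the dotted line, floxed mice on a high-fat diet from the second table, 1 library per bar. Serpina3k is at 25.95 FPKM in ATRβKO (T3) and under 2 FPKM elsewhere, while Serpina3c and Hp are lowest in Floxed (T3) and Saa3 is highest in Floxed (HFD).

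The other genes of the cluster were low apart from Serpina3g, an intracellular inhibitor known from mouse lymphocytes. Serpina3g was at 17.63 FPKM in ATRβKO (T3), 16.95 in Floxed (T3) and 19.80 in Floxed (Veh), and at 1.98 FPKM in Floxed (HFD). The 10 lymphocyte markers of the list summed to 650 FPKM in ATRβKO (T3), 378 in Floxed (T3) and 758 in Floxed (Veh), and to 9.9 FPKM in Floxed (HFD). Both were thus lowest in Floxed (HFD), while Serpina3g varied less than these markers within the first table, and their part in its level was not tested. Serpina3f was at 2.22, 2.65 and 2.51 FPKM, again in that order. Serpina3h, Serpina3i, Serpina3j and Serpina3e-ps stayed under 1 FPKM in all 4 libraries, and Serpina3a, Serpina3d-ps and Serpina3l-ps were listed at 0 in the first table.

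Summed over 14 genes, the cluster stood at 453 FPKM in ATRβKO (T3), 227 in Floxed (T3) and 311 in Floxed (Veh), and at 603 FPKM in Floxed (HFD). A share within a library does not depend on how the library was scaled. Serpina3n made up 75.03% of the cluster in ATRβKO (T3), 74.06% in Floxed (T3), 71.44% in Floxed (Veh) and 74.40% in Floxed (HFD), so its share was much the same in all 4. Serpina3k made up 5.73% in ATRβKO (T3), against 0.55% in Floxed (T3), 0.55% in Floxed (Veh) and 0.23% in Floxed (HFD). Serpina3c held 13.58% in ATRβKO (T3), 15.44% in Floxed (T3), 19.77% in Floxed (Veh) and 23.79% in Floxed (HFD).

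**Figure D3:**
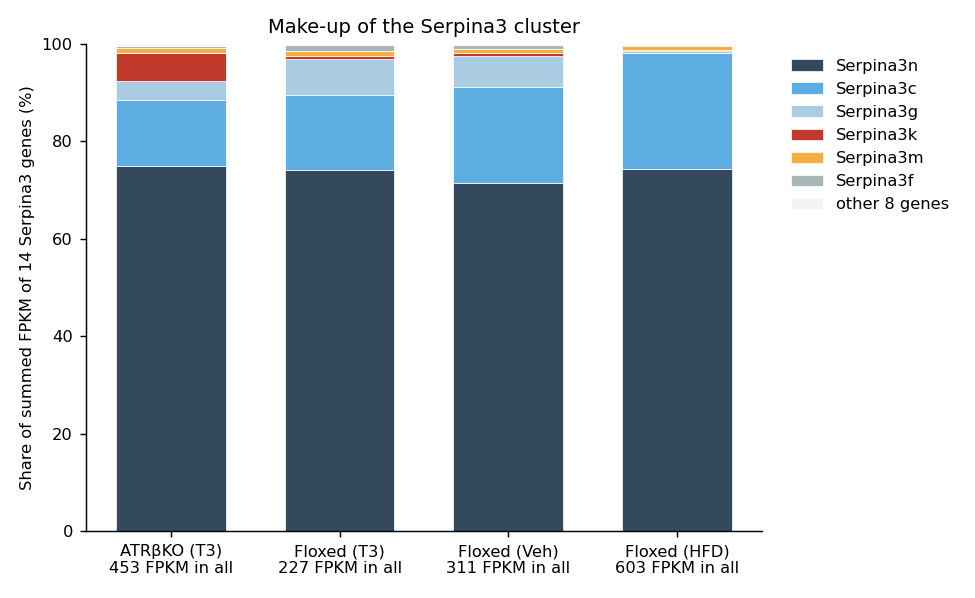
Share in percent of each gene in the summed FPKM of 14 Serpina3 genes, 1 bar per library, with the sum under each bar. Serpina3n takes 71.44% to 75.03% of every bar, and Serpina3k is a visible share, 5.73%, in ATRβKO (T3).

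Hp encodes haptoglobin, which binds free haemoglobin and is a known product of fat cells. It was the most abundant of the 8 genes, at 1065 FPKM in ATRβKO (T3), 681 in Floxed (T3) and 1325 in Floxed (Veh), and at 2733 FPKM in Floxed (HFD). Floxed (T3) was again the low library. The log2 ratio of Floxed (T3) over Floxed (Veh) was -0.96, just short of 2-fold, and that of ATRβKO (T3) over Floxed (T3) was 0.64. Adipocyte markers had no common order. Adipoq, which encodes adiponectin, was lowest in Floxed (T3), with 1482 FPKM in ATRβKO (T3), 781 in Floxed (T3) and 1498 in Floxed (Veh). Slc2a4, an insulin-responsive glucose transporter, was highest there, with 86.28 FPKM in ATRβKO (T3), 169 in Floxed (T3) and 99.58 in Floxed (Veh). Over the 12 markers the median log2 ratio was 0.01 for ATRβKO (T3) over Floxed (T3) and -0.10 for Floxed (T3) over Floxed (Veh). In the latter comparison 1 of the 12, Cfd, was called lower and 0 higher, beside 3.98% and 2.30% of all genes. Cfd was at 8279 FPKM in ATRβKO (T3), 4783 in Floxed (T3) and 11233 in Floxed (Veh), the library order of Hp. Cd163, the macrophage receptor for haptoglobin bound to haemoglobin, was at 49.90 FPKM in ATRβKO (T3), 38.04 in Floxed (T3) and 48.71 in Floxed (Veh).

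Lcn2, which encodes lipocalin 2, a binder of bacterial iron carriers, ran the other way at low levels. It was at 1.84 FPKM in ATRβKO (T3), 4.13 in Floxed (T3), 2.85 in Floxed (Veh) and 1.9 in Floxed (HFD). These values rest on about 23, 51, 33 and 34 fragments in that order. The log2 ratio of ATRβKO (T3) over Floxed (T3) was -0.85 and that of Floxed (T3) over Floxed (Veh) was 0.41. Neutrophil markers, which mark cells that also store lipocalin 2, summed to 49.9 FPKM in ATRβKO (T3), 61.5 in Floxed (T3) and 85.6 in Floxed (Veh), an order that differs from that of Lcn2. Markers of that list had no common order. Ltf, a granule gene, had the order of Lcn2, with 1.19 FPKM in ATRβKO (T3), 4.52 in Floxed (T3) and 4.18 in Floxed (Veh). Of 9 at 1 FPKM it was the 1 called lower in ATRβKO (T3) over Floxed (T3), beside 2.02% of all genes. Camp was highest in Floxed (Veh), at 0.89, 1.23 and 4.5 FPKM in the same library order, as was Ngp, at 2.6, 4.53 and 7.28. Csf3r was highest in ATRβKO (T3), at 4.92, 3.28 and 3.13 FPKM. The part of neutrophils in the Lcn2 level was not tested. Slc22a17, a receptor for lipocalin 2, was at 11.73 FPKM in ATRβKO (T3), 6.49 in Floxed (T3) and 11.93 in Floxed (Veh).

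Saa3 encodes the serum amyloid A made outside the liver in mice, in fat cells and macrophages among others. It was at 3.87 FPKM in ATRβKO (T3), 3.53 in Floxed (T3) and 1.84 in Floxed (Veh), so both T3 libraries lay above vehicle. The log2 ratio was 0.78 for ATRβKO (T3) and 0.67 for Floxed (T3), each over Floxed (Veh). In Floxed (HFD) it was at 33.57 FPKM, where it ranked 2804th in its library, against 11162nd in ATRβKO (T3), 10922nd in Floxed (T3) and 13149th in Floxed (Veh). The tables may have been normalized separately, so this and every other level from Floxed (HFD) is set beside the others as a description and no ratio was formed. In rank, Serpina3c was 713th in Floxed (HFD) and 1486th in Floxed (Veh), and Hp was 29th in Floxed (HFD) and 53rd in Floxed (Veh). Serpina3k was 12992nd in Floxed (HFD) and 13325th in Floxed (Veh). Lymphocyte markers were nearly absent from Floxed (HFD) and muscle markers were far higher there, and the part of these cells in the levels was not tested.

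A difference was called by size, where the log2 ratio reached 1 in either direction and the higher library reached 1 FPKM. The floor of 1 FPKM alone was met by 7 of the 8 genes in each comparison of the first table, and by Serpina3b in none. Counts of members below are out of all 8, while shares over all genes are out of those that met the floor. Between ATRβKO (T3) and Floxed (T3), which asks what losing the receptor from adipocytes does under T3, 2 of 8 were called higher (Serpina3k and Serpina3n) and 0 lower. Over all 14988 genes 4.04% were called higher and 2.02% lower, or 6.06% in either direction. Serpina3k was chosen for this contrast, so nothing is read from the count. After scaling to a median log2 ratio of 0, 1 of 8 was called, and 417 of all genes were higher and 412 lower, against 606 and 303 as deposited. Between Floxed (T3) and Floxed (Veh), the response to T3 with the receptor present, 0 of 8 were called either way, against 2.30% higher and 3.98% lower, or 6.28% in all, among 15031 genes. The split there was 346 higher and 598 lower as deposited, and 484 and 431 after the same scaling. Between ATRβKO (T3) and Floxed (Veh), 1 of 8 (Serpina3k) was called higher and 0 lower, against 1.83% higher and 1.79% lower, or 3.62% in all, among 15175 genes. These comparisons share libraries, so they are not independent of each other.

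**Figure D4:**
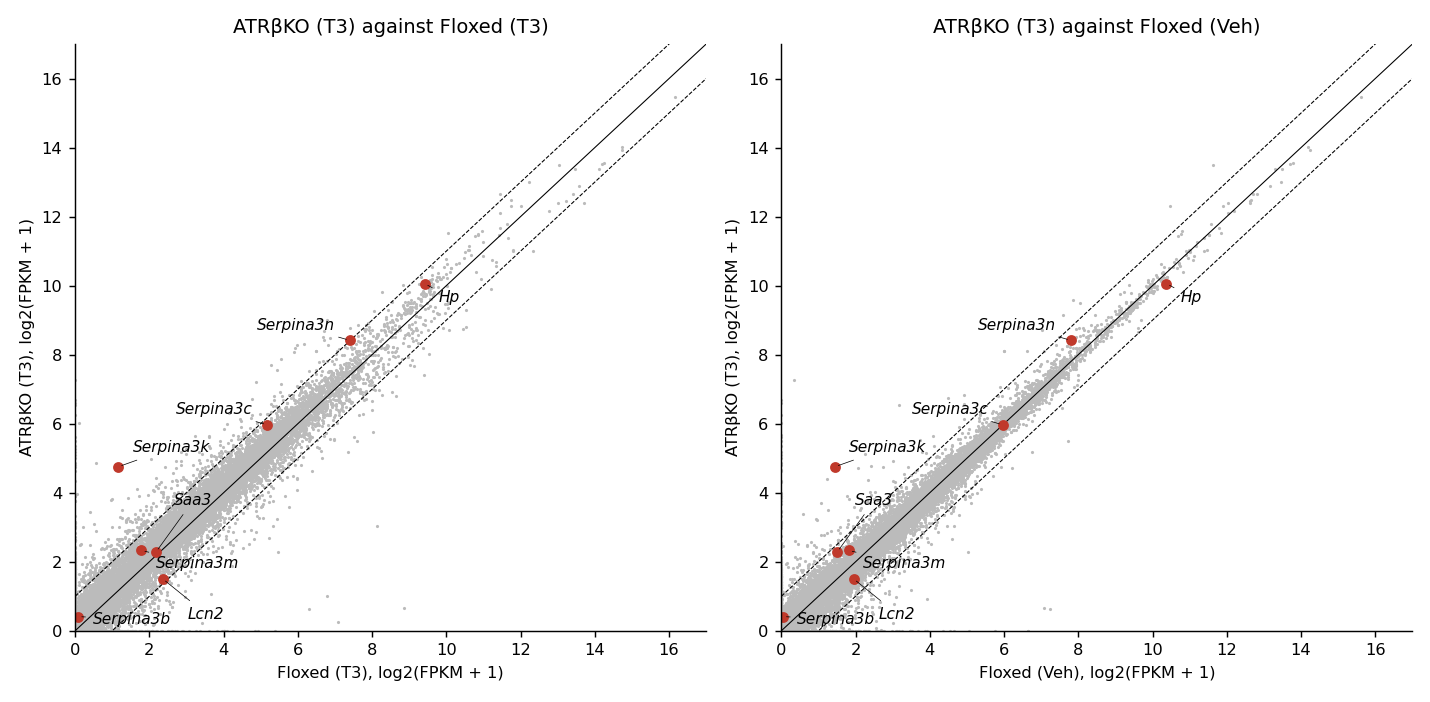
Level of all genes (grey) and of the 8 genes (red) as log2(FPKM + 1), with ATRβKO (T3) on the vertical axis against Floxed (T3) on the left and Floxed (Veh) on the right. The solid line marks equal levels and the dashed lines a 2-fold difference, and Serpina3k lies far above the upper line in both panels while Serpina3n lies on it in the left panel.

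Other acute-phase genes were counted by the same rule. Of 30 such genes besides the members, 19 reached 1 FPKM in ATRβKO (T3) over Floxed (T3), of which 2 were called higher and 0 lower, beside 4.04% and 2.02% of all genes. Their median log2 ratio was 0.18, which is also the median of all genes. The 2 were C4b, a complement component (481 FPKM in ATRβKO (T3), against 235 in Floxed (T3) and 499 in Floxed (Veh)), and Agt, the angiotensin precursor (20.95 FPKM, against 9.29 and 14.25). For Floxed (T3) over Floxed (Veh), 20 reached 1 FPKM and C4b was called lower, beside 3.98% of all genes. The median was -0.33 against -0.21 for all genes. For ATRβKO (T3) over Floxed (Veh) none of 19 was called in either direction, against 3.62% of all genes. The median was 0.06 against -0.03 for all genes.

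Of 13 Serpina genes outside the Serpina3 cluster, 5 reached 1 FPKM in each comparison, and 0 of these 5 were called, against shares over all genes of 6.06% for ATRβKO (T3) over Floxed (T3), 3.62% for ATRβKO (T3) over Floxed (Veh) and 6.28% for Floxed (T3) over Floxed (Veh). Serpina1b, one of the mouse α1-antitrypsin genes, was at 39.30 FPKM in ATRβKO (T3), 43.62 in Floxed (T3) and 33.39 in Floxed (Veh), and at 229 FPKM in Floxed (HFD). Serpina1c was at 2.38 FPKM in ATRβKO (T3), 1.70 in Floxed (T3) and 2.64 in Floxed (Veh), and at 196 FPKM in Floxed (HFD). The α1-antitrypsin genes are close copies of each other, and how reads were divided among them was not tested.

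Genes of inflammatory signalling, which act upstream of the acute phase, were counted next. Of 28, 25 reached 1 FPKM in ATRβKO (T3) over Floxed (T3) and 1 was called higher, beside 4.04% of all genes. The median log2 ratio was 0.35, against 0.18 for all genes, and 0.17 after scaling to a median of 0. The gene called was Cebpd, a C/EBP factor of the acute-phase response, with 15.34 FPKM in ATRβKO (T3), 5.77 in Floxed (T3) and 9.42 in Floxed (Veh). For ATRβKO (T3) over Floxed (Veh), 26 reached 1 FPKM and 1 was called higher, beside 1.83% of all genes. The median was -0.10 against -0.03 for all genes. The gene called was Cebpb, a related factor, with 18.69 FPKM in ATRβKO (T3), 12.87 in Floxed (T3) and 7.38 in Floxed (Veh). For Floxed (T3) over Floxed (Veh), 26 reached 1 FPKM and 1 was called lower, beside 3.98% of all genes. The median was -0.43 against -0.21 for all genes. The gene called was Tnf, at 0.94 FPKM in Floxed (T3) and 2.97 in Floxed (Veh). Il6 stayed under 0.5 FPKM in all 4 libraries. Stat3 was at 46.69 FPKM in ATRβKO (T3), 36.59 in Floxed (T3) and 50.46 in Floxed (Veh), and at 489 FPKM in Floxed (HFD). Levels in Floxed (HFD) had no common direction across this list. Socs3 was at 2.96 FPKM there against 8.7 in Floxed (Veh), and Jak1 at 39.12 against 77.14. Cebpb, in contrast, was at 20.31 FPKM in Floxed (HFD) against 7.38 in Floxed (Veh). The activity of STAT3 was not measured.

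Of 14 genes linked to glucocorticoid action, all at 1 FPKM or more, 3 were called higher and 1 lower in ATRβKO (T3) over Floxed (T3), beside 4.04% and 2.02% of all genes. Their median log2 ratio was 0.66, against 0.18 for all genes, while fibroblast markers had a median of 0.77 and macrophage markers one of 0.81 in the same comparison, and the part of those cells was not tested. Hsd11b1, which regenerates active glucocorticoid inside cells, was at 273 FPKM in ATRβKO (T3), 131 in Floxed (T3) and 133 in Floxed (Veh). Tsc22d3, an induced target of the receptor, was at 119 FPKM in ATRβKO (T3), 44.59 in Floxed (T3) and 92.85 in Floxed (Veh). Errfi1 was at 42.57 FPKM in ATRβKO (T3), 16.53 in Floxed (T3) and 27.20 in Floxed (Veh). Pdk4, which restrains pyruvate oxidation, was the lower one, at 38.06 FPKM in ATRβKO (T3), 93.86 in Floxed (T3) and 33.20 in Floxed (Veh). For Floxed (T3) over Floxed (Veh) 1 was called higher (Pdk4) and 2 lower (Tsc22d3 and Per1), beside 2.30% and 3.98% of all genes. The median was -0.52 against -0.21 for all genes. For ATRβKO (T3) over Floxed (Veh) Hsd11b1 was called higher and none lower, beside 1.83% and 1.79% of all genes. The median was 0.28 against -0.03 for all genes. Nr3c1, the glucocorticoid receptor itself, was at 30.38 FPKM in ATRβKO (T3), 25.97 in Floxed (T3) and 33.76 in Floxed (Veh).

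A further list held 16 proteases, receptors and ligands that the products of these genes bind or act beside. Of these, 13 reached 1 FPKM in ATRβKO (T3) over Floxed (T3) and 1 was called higher, beside 4.04% of all genes. The median log2 ratio was 0.38, against 0.18 for all genes. The gene called was Cma1, a mast cell chymase, at 32.41 FPKM in ATRβKO (T3), 12.38 in Floxed (T3) and 20.49 in Floxed (Veh). Gzmb, the granzyme that Serpina3n inhibits, was at 2.85 FPKM in ATRβKO (T3), 2.68 in Floxed (T3) and 3.14 in Floxed (Veh). In Floxed (T3) over Floxed (Veh) 0 of the 12 at 1 FPKM were called, against 6.28% of all genes. In ATRβKO (T3) over Floxed (Veh) 0 of 13 were called, against 3.62%.

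Serpina3k is known as an abundant liver transcript, so markers of hepatocytes were set beside it. Of 14, 5 reached 1 FPKM in ATRβKO (T3) over Floxed (T3), and Apoa2 was called lower among them, beside 2.02% of all genes. The median log2 ratio of the 5 was 0.36, against 0.18 for all genes. In ATRβKO (T3) over Floxed (Veh), 0 of the 6 that reached 1 FPKM were called, against 3.62% of all genes. The median was -0.26 against -0.03 for all genes. In Floxed (T3) over Floxed (Veh), 6 reached 1 FPKM and Apoa1 was called lower, beside 3.98% of all genes. The median was -0.56 against -0.21 for all genes. Most of the list lay under the floor and could not be called. All 14 summed to 32.1 FPKM in ATRβKO (T3), 27.2 in Floxed (T3) and 30.3 in Floxed (Veh). Alb, which encodes albumin, was at 17.99 FPKM in ATRβKO (T3), 13.81 in Floxed (T3) and 15.70 in Floxed (Veh). Cyp3a11, Cps1, F2 and Tat were each at or under 0.13 FPKM in these 3 libraries, and Cyp3a11 and F2 were listed at 0 in Floxed (T3). Some low markers were higher in ATRβKO (T3) than in Floxed (T3). Apoa1 was at 0.99 FPKM in ATRβKO (T3), 0.21 in Floxed (T3) and 1.43 in Floxed (Veh), and Apoh at 0.53 FPKM in ATRβKO (T3), 0.12 in Floxed (T3) and 0.25 in Floxed (Veh). The part of hepatocyte RNA in the Serpina3k level was not tested.

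Markers of other cells differed between the libraries with T3. Over all genes, 4.04% were called higher and 2.02% lower in ATRβKO (T3) over Floxed (T3), with a median log2 ratio of 0.18. The median there was 0.77 for progenitor and fibroblast markers, 0.81 for macrophage markers and 2.2 for muscle markers. Progenitor and fibroblast markers, 4 of 14 called higher in ATRβKO (T3) over Floxed (T3), summed to 3932 FPKM in ATRβKO (T3), 2069 in Floxed (T3) and 3048 in Floxed (Veh). Col3a1, a collagen gene and the most abundant of them in ATRβKO (T3), was at 1031 FPKM there, 454 in Floxed (T3) and 660 in Floxed (Veh). Col1a1, Fn1 and Dpp4 were called as well. Macrophage markers, 2 of 12 called higher, summed to 2365, 1379 and 1908 FPKM in the same order. The 2 were Trem2 and Gpnmb, and Lyz2, the most abundant marker, was at 1277 FPKM in ATRβKO (T3), 776 in Floxed (T3) and 1086 in Floxed (Veh). Muscle markers were called higher in 10 of 10, with Tnnt3 at 510 FPKM in ATRβKO (T3), 109 in Floxed (T3) and 517 in Floxed (Veh). None of these fibroblast, macrophage or muscle markers was listed at 0. The order of the fibroblast and macrophage sums, with Floxed (T3) lowest, is also that of Serpina3n, and the part of cell make-up in the level of Serpina3n was not tested. Mammary epithelium markers, a further possible source in this depot, summed to 5.4, 3.5 and 3.3 FPKM, with Csn2 and Wap listed at 0 in all 3 libraries, and endothelial markers to 387, 486 and 375 FPKM, both in the order given above.

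The genes nearest in pattern to Serpina3k were mostly not protein-coding. The search covered 10266 genes at 5 FPKM or more in some library of the first table. Predicted genes and entries named by clone or accession were left out of it. Likeness was measured over the 3 libraries of that table as the distance in the plane of 2 log2 ratios. These were the ratios of ATRβKO (T3) and Floxed (T3), each over Floxed (Veh). The nearest was a pseudogene, Pdcd5-ps, at a distance of 0.28, with 8.99 FPKM in ATRβKO (T3) and a value of 0 in Floxed (T3) and Floxed (Veh). It was followed by Vmn2r-ps104 at 0.82, Rpph1 at 1.40, Igkv5-45 at 1.41 and Rn7s2 at 1.43, which are a pseudogene, structural RNA genes and an antibody gene segment. For Lcn2 the nearest were Hoxb7 and Cisd3, both at a distance of 0.06, then Smim26 at 0.07, and Bag2 and mt-Nd5 at 0.08.

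**Figure D5:**
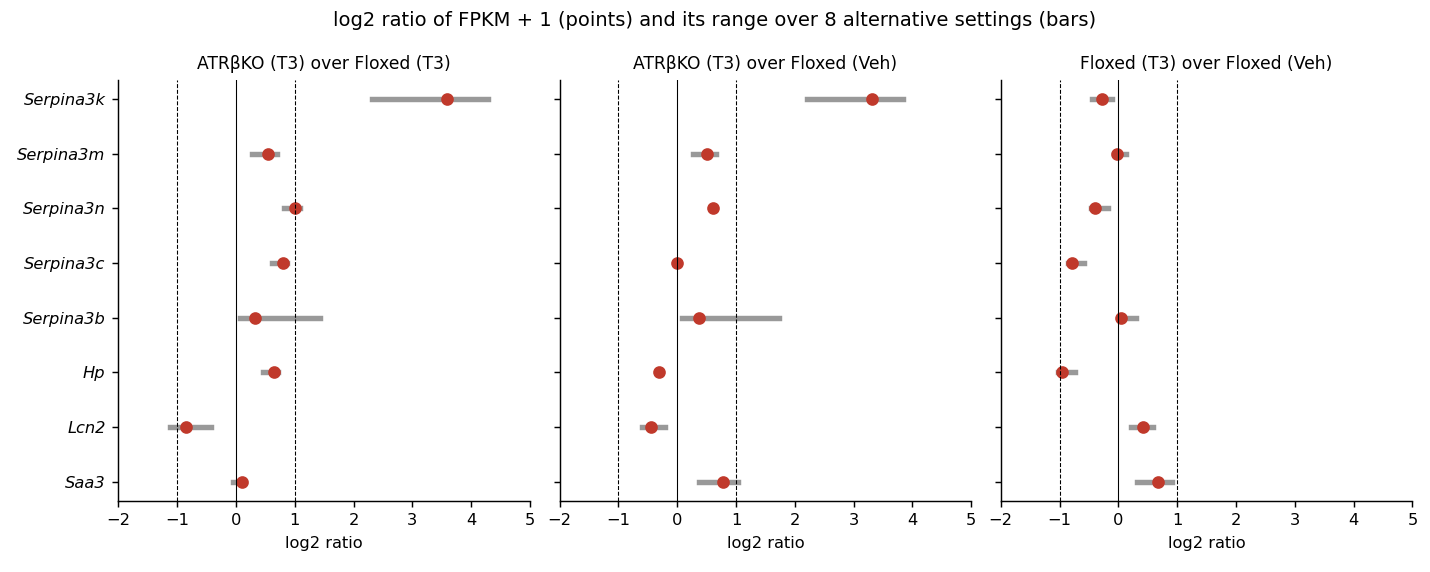
log2 ratio of each of the 8 genes in 3 comparisons (points) with its range over 8 alternative settings of pseudocount, floor and scaling (grey bars), and dashed lines at the 2-fold rule. Serpina3k stays beyond the rule in both comparisons that involve ATRβKO (T3), and Serpina3n straddles it in ATRβKO (T3) over Floxed (T3), while the wide bars of Serpina3b come from levels under 1 FPKM.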

How the data were processed

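RNA from inguinal white adipose tissue was sequenced as paired reads after an Illumina TruSeq preparation, per the labels' protocols. HISAT2 and StringTie (no versions) and the build GRCm39 come from the submitters' processing notes. The deposited values were taken as FPKM computed by the authors, a unit inferred from non-integer values, unequal library sums and the naming of StringTie. FPKM divides by library total, so abundant genes lower all others. Strand-specific counting is not given in the sources used here.

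Depth was estimated from single-exon genes whose low values fit 1 to 3 fragments. Approximate fragments used the median length of coding transcripts (GENCODE M21). No intervals were formed, as the counts are estimates. Log2 ratios used a pseudocount of 1 FPKM, within the first table alone. Calls needed a log2 ratio of 1 and 1 FPKM in the higher library. A protein table was not used here, so coding sequences stood in for proteins. These and the promoters are on GRCm38, and no coordinate was carried between builds. Sequences were aligned with MAFFT 7.526, and tables were handled with Python 3.11.15 and pandas 2.3.3. The calling rule, scaling and depth estimate were tested on simulated data.

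The members and the 15 gene lists were chosen with earlier results of these data known. Named genes are the 8 members, other Serpina3 genes, Thrb and Thra. Added to these are up to 4 called genes per list and the 5 nearest patterns of Serpina3k and Lcn2. The most abundant marker in ATRβKO (T3) is named for the adipocyte, hepatocyte, fibroblast, macrophage and muscle lists. It is not named for the neutrophil, lymphocyte, endothelial and mammary lists. Adipoq, Cd163, Slc22a17, Slc2a4, Serpina1b, Serpina1c, Il6, Stat3, Nr3c1, Gzmb and the low hepatocyte markers were added after their values were seen. So were Retn, Pparg, Socs3, Jak1, Camp, Ngp and Csf3r. Alternatives changed the pseudocount, floor, fold, scaling and gene set.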

Additional observations from a re-analysis of the deposited data

Results flagged for a closer look

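The library labelled ATRβKO (HFD) was outside the comparisons, since the genes were chosen over the other 4 libraries. Thrb, the gene its label says is lost, stood at 170 FPKM there, against 4.38 in Floxed (HFD), and its values summed to 1891065 FPKM, against 757606. Lcn2 was at 7.82 FPKM in that library and 1.9 in Floxed (HFD). Saa3 was at 97.64 FPKM in that library and 33.57 in Floxed (HFD). Both are listed because the level exceeded that of the floxed library in data that no comparison used. Adipocyte markers differed widely, in both directions, between ATRβKO (HFD) and Floxed (HFD). Adipoq was at 140 FPKM in ATRβKO (HFD) against 2632, and Slc2a4 at 0 against 79.37. Retn was at 3970 FPKM in ATRβKO (HFD) against 1199, and Pparg at 786 against 119. No level of ATRβKO (HFD) is therefore read as an effect of the genotype. The other members were not higher there: Hp was at 2163 FPKM, against 2733 in Floxed (HFD), Serpina3n at 172 against 449, Serpina3c at 89.43 against 143.59, and Serpina3k at 0.92 against 1.41. With 1 library per group the difference was not tested.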

How the results depend on the processing

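Serpina3k was called higher in ATRβKO (T3) over both Floxed (T3) and Floxed (Veh) under every alternative, with log2 ratios of 2.31 to 4.28 and 2.20 to 3.84, the lowest at a pseudocount of 5 FPKM. Summing it with Serpina3m, chosen after seeing the data, gave 2.72 and 2.56. Among the alternative values of single members, 4 lost a call and 3 gained one. These were Serpina3n in ATRβKO (T3) over Floxed (T3), which was not called at a pseudocount of 5 (0.996), a median log2 ratio of 0 (0.82), trimmed means (0.83) or a common total without the 50 most abundant genes (0.88), Lcn2 there (-1.12 at a pseudocount of 0.1), Saa3 in ATRβKO (T3) over Floxed (Veh) (1.03 at 0.1) and Hp in Floxed (T3) over Floxed (Veh) (-1.02 at a common total). Serpina3b passed a log2 ratio of 1 at a pseudocount of 0.1 (1.43 over Floxed (T3) and 1.73 over Floxed (Veh)) but stayed uncalled because its levels lie under the floor.

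Members called higher in ATRβKO (T3) over Floxed (T3) were thus 1 in place of 2 under those 4 settings and at 4-fold, and 4 at 1.5-fold. There, 1 member was lower at a pseudocount of 0.1 or 1.5-fold. Over all genes, 192, 417, 417 and 461 were higher under those 4 settings, in the order given above, and 94 at 4-fold. At 1.5-fold, 2009 of 14988 genes were higher and 758 lower, and 474 were lower at a pseudocount of 0.1. Over Floxed (Veh), 2 members were higher at 0.1 and 3 at 1.5-fold, beside 474 and 660 of 15175 genes. In Floxed (T3) over Floxed (Veh), 1 member was higher and 2 lower at 1.5-fold, beside 786 and 2111 of 15031 genes. At a common total 1 member was lower there, beside 670 of all genes. For each change, the cause was not tested. List medians moved by over 0.1 in 42 alternatives and stayed within it in 102. Counts over all genes ran from 94 to 2009 higher (606 as reported) and 54 to 758 lower (303) in ATRβKO (T3) over Floxed (T3), from 67 to 660 (277) and 51 to 656 (272) over Floxed (Veh), and from 68 to 786 (346) and 86 to 2111 (598) in Floxed (T3) over Floxed (Veh). Scaling to a median of 0 shifted log2 ratios by -0.19, 0.03 and 0.22 in the same order. No paired analysis was possible because each group holds 1 library. Members under 5 FPKM rest on at most 90 estimated fragments in a library, which limits their precision.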
